A study of Mus musculus with 6 samples.

Results

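The genes described here are Smad6 and Smad7, which encode the inhibitory Smads, and Smurf1 and Smurf2, which encode the Smad ubiquitin ligases, in Lbeta T2 cells given activin A. They are 4 of the 18193 genes named on the array, and were followed through every probe set that the platform annotation assigns to one of them alone: 8 probe sets of the 45037 on the array that are not controls, with 1 for Smad6, 2 for Smad7, 2 for Smurf1 and 3 for Smurf2. A probe set is a group of short probes read out as 1 value. No probe set shared by several genes included a member. Lbeta T2 is a mouse pituitary line of gonadotrope type, immortalised with a viral T antigen. The 3 tested cultures were held for 16 h without serum or phenol red and then given recombinant human activin A at 30 ng/ml for 1, 2 or 6 h. The 3 control cultures were held in the same way and given only the buffer, a solution of salt and Tris, for 1, 2 or 6 h. Each of the 6 combinations was read on 1 Affymetrix array. A difference at a single time therefore has nothing to be checked against, and precision is limited by there being only 6 arrays.

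Activin binds a pair of serine/threonine kinase receptors that phosphorylate the receptor Smads, which join Smad4 and enter the nucleus to regulate transcription. Smad6 and Smad7 are the brakes of this system: they occupy the activated receptors or compete for Smad4, and their own genes are known targets of the signal, so that they close a feedback loop. Smad7 acts on both the activin and TGF-beta branch and the BMP branch, while Smad6 acts mainly on the BMP branch. Smurf1 and Smurf2 are HECT-type E3 ubiquitin ligases that mark Smads for degradation and are carried by the inhibitory Smads to the receptors, which they then mark as well. In gonadotropes activin drives the gene of the beta subunit of follicle-stimulating hormone.

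In RefSeq on GRCm38.p6, Smad6 spans chr9:63953076-64022085, Smurf1 chr5:144876495-144965899 and Smurf2 chr11:106820061-106920747. Promoter sequences for 3 of the 4 genes were matched by symbol in the RefSeq promoter table of the same build, and they are shown because they precede the starts of the genes whose RNA the arrays measured. Each line gives the minus strand, 5′ to 3′, as far as the edge of the annotated gene. The intervals are chr9:64022086-64022309 for Smad6, chr5:144965900-144966080 for Smurf1 and chr11:106920748-106920965 for Smurf2. Capitals mark matches, on either strand, to CAGACA, a form of the Smad-binding element, or to GGCGCC, a palindrome of the kind described in BMP-responsive elements.
Smad6: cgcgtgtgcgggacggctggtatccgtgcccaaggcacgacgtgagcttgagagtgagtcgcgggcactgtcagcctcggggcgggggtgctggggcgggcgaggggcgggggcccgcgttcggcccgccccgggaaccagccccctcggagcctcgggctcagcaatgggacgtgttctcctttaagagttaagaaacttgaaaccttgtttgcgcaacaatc
Smurf1: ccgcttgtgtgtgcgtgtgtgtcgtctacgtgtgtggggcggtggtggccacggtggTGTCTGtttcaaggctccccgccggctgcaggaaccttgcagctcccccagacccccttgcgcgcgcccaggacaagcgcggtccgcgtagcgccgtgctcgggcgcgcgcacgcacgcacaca
Smurf2: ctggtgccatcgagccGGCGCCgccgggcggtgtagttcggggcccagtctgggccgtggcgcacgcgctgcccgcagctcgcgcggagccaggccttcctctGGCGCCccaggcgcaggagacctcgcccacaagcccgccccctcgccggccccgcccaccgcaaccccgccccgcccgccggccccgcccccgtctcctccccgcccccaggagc
Motifs were counted in the 250 bases before the start used in the promoter table, which lies inside the annotated gene. The lines above therefore show only the first 224 of these bases for Smad6, 181 for Smurf1 and 218 for Smurf2. In its 250 bases Smad6 had no match to either motif. Smurf1 had 1 match to CAGACA, 193 bases before that start, and Smurf2 had 2 matches to GGCGCC, 234 and 147 bases before its own. None of the 3 had TGANTCA, the AP-1 motif. Of 32851 promoter windows of 250 bases, 17.1% held CAGACA, 9.59% GGCGCC and 6.75% TGANTCA. No match here overlapped another. The windows were rich in G and C, at 66.8% for Smad6, 74.8% for Smurf1 and 82% for Smurf2 against a median of 52.4%. A match is a run of letters and not a binding site.

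The arrays had a common scale, with trimmed means of 500.002 on each of the 6 and medians between 151 and 166.4. The tests used the 22518 probe sets whose average log2 signal was above the overall median, which corresponds to a signal of 155.2. The gonadotrope character of the line was visible in the alpha subunit gene Cga, with signals between 12802.4 and 16715.3 on the activin arrays and between 11888.7 and 13900.2 on the control arrays. Of 9 gonadotrope markers 7 passed the filter, against 2 of 8 markers of other pituitary cells (Tshb and Pomc) and 5 of 9 of fibroblasts, endothelium and blood. None of these passed the limma test used below. At an unadjusted p under 0.05 were Lhx3, with a mean log2 ratio of 0.59 ± 0.17, the endothelial marker Pecam1 at 0.72 ± 0.14, and the macrophage markers Adgre1 at −0.41 ± 0.09 and Csf1r at −0.37 ± 0.10. Pecam1 read 700.7, 952.3 and 1081.3 with activin at 1, 2 and 6 h and 527.3, 576 and 530.5 with buffer. The part of these markers in the members' ratios was not tested. The follicle-stimulating hormone gene itself was below the filter. The control probe sets of 18S rRNA were uneven. The 5′ one had a signal of 12201.8 with activin at 1 h, against 610.1 with buffer at 1 h. Its signals were 190.3 to 1171.1 on the later arrays. The middle and 3′ ones read 1388.8 and 894.3 with activin at 1 h, against 356.8 and 297.6 with buffer. The part of this difference in the 1 h ratios was not tested, so means without the 1 h arrays are given beside them.

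Smad6 was higher with activin at every time. Its 1 probe set, 1422771_at, read 978.5, 1159 and 733.9 on the activin arrays at 1, 2 and 6 h, against 380, 368.9 and 544.7 on the control arrays. All 3 activin signals lay above all 3 control signals. In such bulk RNA a change in the share of responding cells and a change in RNA per cell cannot be told apart. The activin signal was 2.58-fold its own control at 1 h, 3.14-fold that at 2 h and 1.35-fold that at 6 h. Averaged over the 3 times the log2 ratio was 1.15 ± 0.25 (moderated SE of a limma fit with time as a block), a fold of 2.22 with a 95% interval of 1.42 to 3.45. This mean is at percentile 99.9 of all probe sets past the filter, but it did not pass the test over all of them (limma, adjusted p = 0.384, unadjusted p = 0.00568). Without the 1 h arrays the mean log2 ratio was 1.04.

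Smad7, which spans chr18:75367365-75395935 on GRCm38.p6, was measured by 2 probe sets that gave different pictures. The brighter one, 1423389_at, read 972.6, 914.3 and 688.7 with activin at 1, 2 and 6 h and 416.4, 416.4 and 605.4 with buffer. The groups again did not overlap, and the 6 h pair was the closest. The folds were 2.34, 2.2 and 1.14, and the mean log2 ratio was 0.85 ± 0.23 (limma, adjusted p = 0.431, unadjusted p = 0.0134), a fold of 1.8 with a 95% interval of 1.2 to 2.7. Without the 1 h arrays it was 0.66.

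The dimmer Smad7 probe set, 1443771_x_at, was dim in the control cultures. Its suffix marks probes that may also bind transcripts of other genes. It read 885.2, 178.2 and 309 with activin at 1, 2 and 6 h and 87.8, 139 and 106.5 with buffer. Every control signal was under the filter value of 155.2, so the probe set passed the filter only through the activin arrays and the groups had to differ. The measured folds were 10.1, 1.28 and 2.9, and with signals under 155.2 raised to that value they were 5.7, 1.15 and 1.99. The mean log2 ratio of 1.74 ± 0.55 (limma, adjusted p = 0.449) rested largely on the 1 h activin array, and it was 0.95 without the 1 h arrays. In the authors' deposited table of genes past 1.2-fold at all 3 times, Smad7 had folds of 3.94, 2.54 and 1.97, under an accession that the annotation used here does not tie to either probe set. The deposited folds matched neither probe set at all 3 times, and how they were computed is not stated in the labels or the table. None of the other members was in that table, which is a partial list. In the signals used here Smad6 was past 1.2-fold at all 3 times, with folds of 2.58, 3.14 and 1.35. Why it was absent was not tested.

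**Figure D1:**
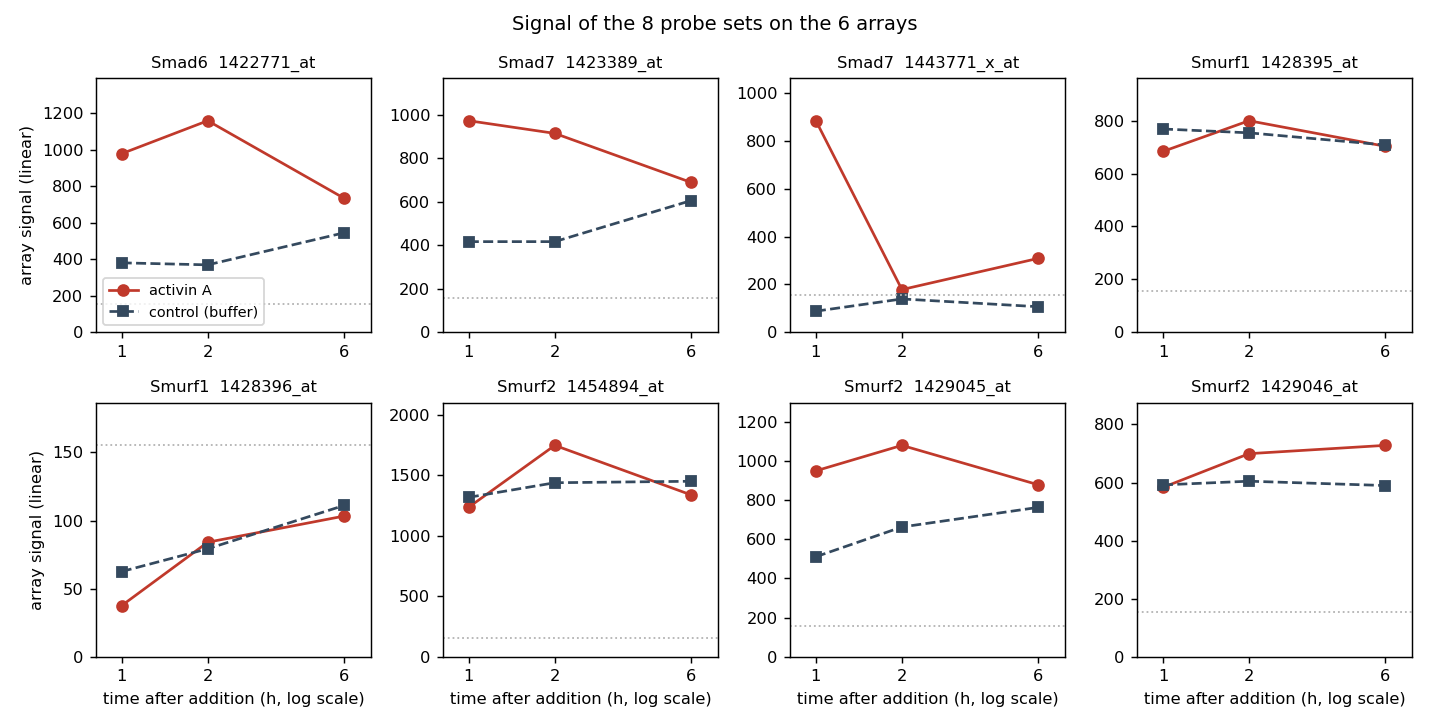
Linear array signal (vertical axis, from 0, a scale of its own in each panel) of each of the 8 probe sets against time in hours on a log scale, with circles for activin A and squares for control cultures, 1 array each. The dotted line is the filter value of 155.2; activin lies above control at every time for Smad6, both Smad7 probe sets and Smurf2 1429045_at, and the lines cross or meet for the others.

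Smurf1 showed no steady difference between activin and buffer. Its brighter probe set, 1428395_at, read 683.6, 799.8 and 703 with activin and 768.5, 754 and 708 with buffer at 1, 2 and 6 h. The 2 groups overlapped, and the largest difference at a single time was the 1 h activin signal, 1.12-fold below its control. The mean log2 ratio was −0.03 ± 0.10 (limma, adjusted p = 0.937), and its 95% interval reached from 0.82-fold to 1.17-fold. A steady 1.5-fold change in either direction lies outside that interval. The second probe set, 1428396_at, carries the same accession in the annotation but was too dim to test, at 37.6, 84.1 and 103.3 with activin and 62.6, 79.3 and 111.1 with buffer. Both treatments read higher at later times on it, and all 6 signals were under the filter value.

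Smurf2 depended on the probe set. The brightest of its 3, 1454894_at, read 1235.1, 1745.3 and 1336.1 with activin and 1316.5, 1436.8 and 1448.9 with buffer at 1, 2 and 6 h. Only the 2 h activin array lay above all 3 controls, by 1.21-fold over its own, and the mean log2 ratio was 0.02 ± 0.12 (limma, adjusted p = 0.963), with a 95% interval of 0.82-fold to 1.26-fold. The second probe set, 1429045_at, read 948.6, 1078.6 and 877.5 with activin and 510.4, 662.2 and 762.3 with buffer. Here all activin signals lay above all control signals, with folds of 1.86, 1.63 and 1.15.

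The mean log2 ratio of 1429045_at was 0.60 ± 0.16, a fold of 1.52 with a 95% interval of 1.15 to 2, and did not pass over all probe sets (limma, adjusted p = 0.431, unadjusted p = 0.0122). Without the 1 h arrays it was 0.45. The third probe set, 1429046_at, has the same accession as 1429045_at in the annotation. It read 583.2, 699.3 and 727.9 with activin and 589.6 to 604.5 with buffer, and its folds over the control of the same time were 0.985, 1.16 and 1.23. Its mean log2 ratio was 0.16 ± 0.11 (limma, adjusted p = 0.647). For Smurf2 the data therefore give no single answer: 1 of 3 probe sets was more than 1.5-fold higher with activin at 1 h and 2 h, and 2 were within 1.25-fold of control at every time.

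**Figure D2:**
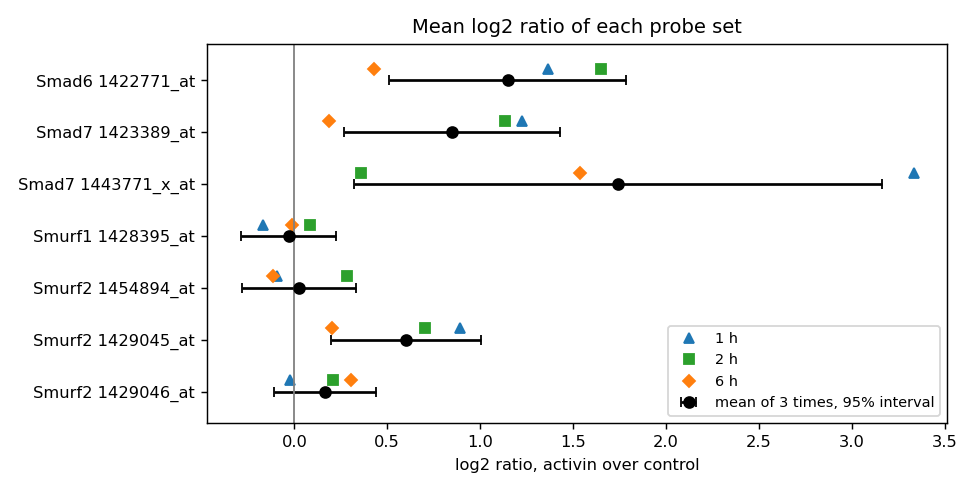
Log2 ratio of activin over control (horizontal axis) for the 7 probe sets past the filter, with 1 symbol for each time and, in black, the mean of the 3 times with its 95% interval from the limma fit. The intervals of Smad6, both Smad7 probe sets and Smurf2 1429045_at lie above 0, and those of Smurf1 and the other Smurf2 probe sets include it. No probe set passed after adjustment, and Smad7 1443771_x_at passed the filter only through the activin arrays, so its interval is a description.

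Counted over the members, 7 of the 8 probe sets passed the filter, and 6 would have passed on their control arrays alone. At 1 h 4 of the 7 were at least 1.5-fold higher with activin, where 4.05% of all 22518 probe sets were. At 2 h 3 were, against 3.05%, and at 6 h 1 was, the dim Smad7 probe set, against 4.14%. None of the 7 was 1.5-fold lower at any time, where 3.22%, 3.42% and 3.58% of all probe sets were at 1, 2 and 6 h. The split of all probe sets into higher and lower ones depends on the scaling. By count it was 912 against 726 at 1 h, and at 2 h the shares were the 3.05% and 3.42% given above. With median centring it was 764 higher and 983 lower at 1 h and 958 and 536 at 2 h, and with quantile normalization 798 and 577 at 2 h. All 3 activin signals lay above all 3 control signals for 4 of the 7, against 6.17% of all, and below them for none, against 7.86%. At both 1 h and 2 h 3 were at least 1.5-fold higher, where 0.768% of all were. The dim Smad7 probe set is among the 4 at 1 h and among these 4 too. In the limma test none of the 7 passed, and the share over all probe sets was 0%: no probe set passed an adjusted p of 0.05, and 1090 higher (4.84%) and 1190 lower (5.28%) had an unadjusted p under 0.05. Of the members 4 were among the higher ones and none among the lower ones; the dim Smad7 probe set, which passed the filter only through the activin arrays, is 1 of the 4. With limma's trended prior and robust fit 21 probe sets passed, none of them a member, and the lowest adjusted p among the members was that of Smad6, 0.145.

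The time courses of Smad6, the brighter Smad7 probe set and Smurf2 1429045_at had a common shape, with ratios at 6 h below those at 1 h and 2 h. Part of this came from the control arrays. For Smad6 the log2 ratio at 6 h minus that at 1 h was −0.93, made up of −0.41 on the activin arrays and 0.52 on the control arrays, where the 6 h signal was 1.43-fold the 1 h signal. For Smad7 1423389_at the difference was −1.04, with −0.50 on the activin arrays and 0.54 on the control arrays, a control fold of 1.45. For Smurf2 1429045_at it was −0.69, with −0.11 on the activin arrays and 0.58 on the control arrays, a control fold of 1.49. In all 3 the control cultures moved toward the activin cultures by at least as much as the activin cultures moved back. Over all probe sets, 5.46% were at least 1.5-fold apart, in either direction, between the 6 h and 1 h control arrays. Between the 6 h and 2 h control arrays 4.93% were. The 3 control folds above were all below 1.5, so these shares do not say how frequent changes of their size were.

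Setting each activin array against the mean of the 3 control arrays gave larger values at 6 h. Smad6 was then 2.31-fold, 2.73-fold and 1.73-fold higher at 1, 2 and 6 h, Smad7 1423389_at 2.06-fold, 1.94-fold and 1.46-fold, and Smurf2 1429045_at 1.49-fold, 1.7-fold and 1.38-fold. The order of the times was kept for the Smads, but for Smurf2 the highest value moved to 2 h. A steady change of the log2 ratio with time was tested by the interaction of treatment with log2 of hours. The slope per doubling of time was −0.40 ± 0.16 for Smad6, −0.42 ± 0.11 for Smad7 1423389_at and −0.27 ± 0.09 for Smurf2 1429045_at (limma, adjusted p = 0.728, 0.711 and 0.719). The unadjusted p was 0.0684, 0.0176 and 0.0377, and 3.2% of all probe sets had a negative slope with an unadjusted p under 0.05 and 3.66% a positive one. No probe set passed after adjustment (0%). The dim Smad7 probe set had −0.56 ± 0.49 (limma, adjusted p = 0.883).

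**Figure D3:**
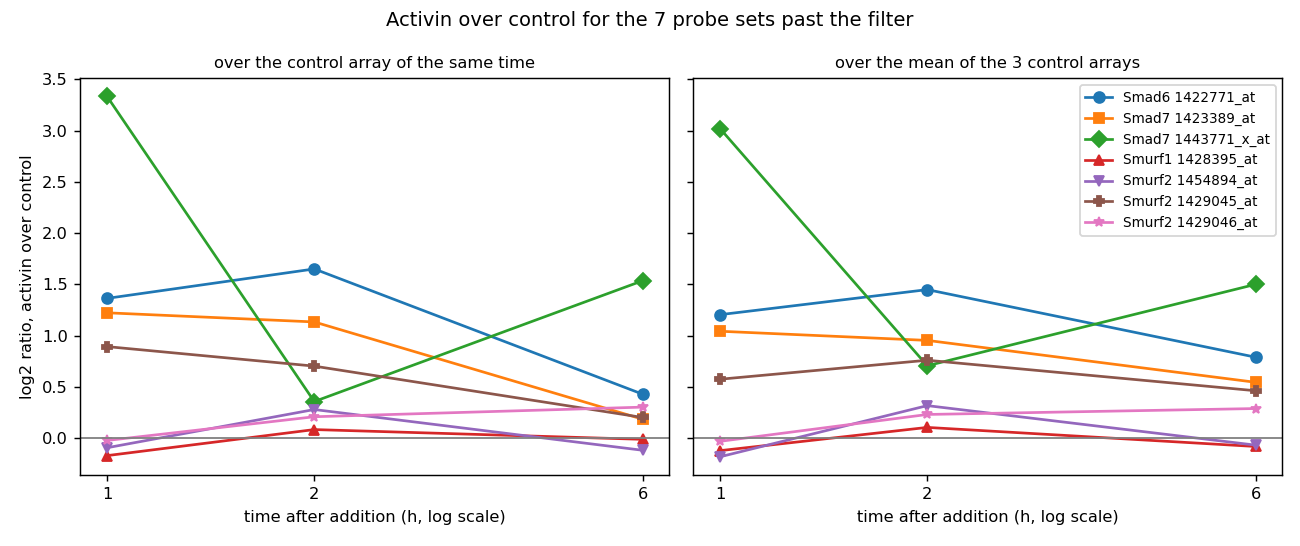
Log2 ratio of activin over control (vertical axis) against time in hours on a log scale for the 7 probe sets past the filter, set against the control array of the same time on the left and against the mean of the 3 control arrays on the right. At 6 h the values of Smad6, Smad7 1423389_at and Smurf2 1429045_at are 0.43, 0.19 and 0.20 on the left and 0.79, 0.55 and 0.46 on the right.

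Probe sets of 1 gene were compared directly through the difference of their log2 ratios, with all 13172 such pairs from 4990 genes as the background. The 2 Smad7 probe sets differed by 4.32-fold at 1 h, by 1.71-fold at 2 h and by 2.55-fold at 6 h. The brighter one gave the lower ratio at 1 h and 6 h and the higher at 2 h. Of all pairs 0.0987%, 5.1% and 0.797% were at least as far apart at these times. These values rest on 1443771_x_at, whose control signals were all under 155.2. With signals under 155.2 raised to it for all pairs, the Smad7 pair differed by 2.44-fold, 1.91-fold and 1.75-fold, and 0.941%, 1.81% and 3.51% of pairs were at least as far apart. For Smurf2, 1429045_at was 1.98-fold above 1454894_at and 1.89-fold above 1429046_at at 1 h, distances that 3.55% and 4.4% of pairs reached. At 6 h the same pairs were 1.25-fold and 1.07-fold apart, which 31.6% and 72.3% of pairs reached. The other Smurf2 pair was at most 1.34-fold apart at any time.

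As background, 14.4%, 10.5% and 10.3% of pairs were at least 1.5-fold apart at 1, 2 and 6 h, so disagreement of 1.5-fold is frequent. At 1 h the Smad7 pair and the Smurf2 pairs with 1429045_at were further apart than that, at the smaller shares given above. Averaged over time, no pair of any gene passed the limma test of the difference (0% at an adjusted p of 0.05, 9.16% at an unadjusted p under 0.05). The mean difference was −0.58 ± 0.17 for Smurf2 1454894_at minus 1429045_at (limma, adjusted p = 0.498), 0.44 ± 0.21 for 1429045_at minus 1429046_at (adjusted p = 0.615) and −0.89 ± 0.54 for Smad7 1423389_at minus 1443771_x_at (adjusted p = 0.686). With dim signals raised to 155.2 the Smad7 difference was −0.39 (limma, adjusted p = 0.840). Which transcripts each probe set detects was not analysed here.

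**Figure D4:**
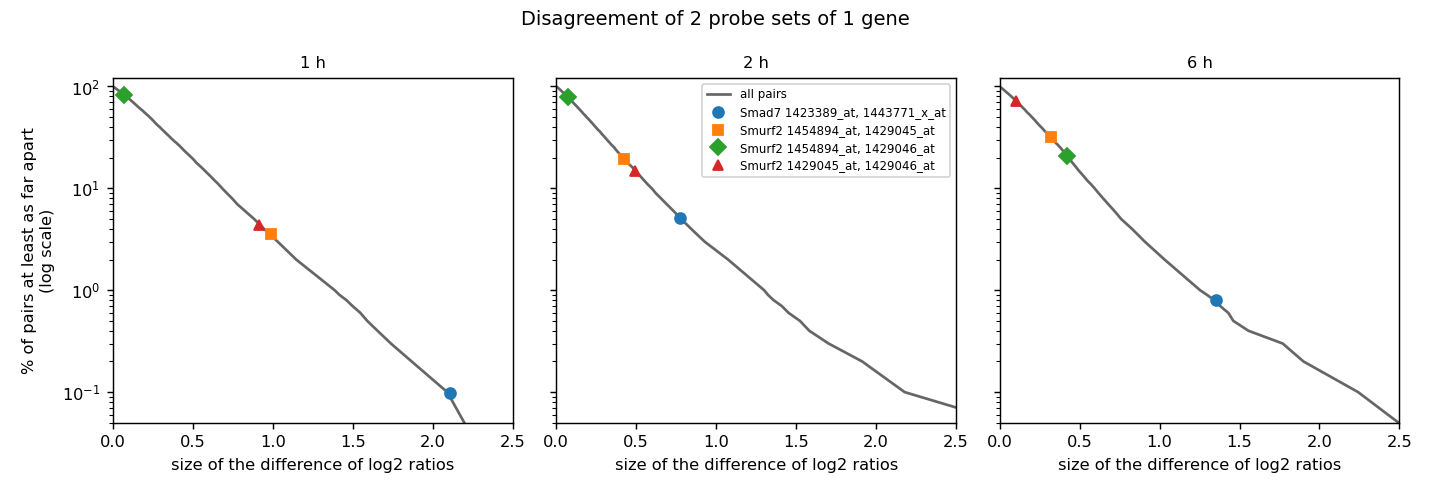
Share of all 13172 pairs of probe sets of 1 gene that were at least as far apart (vertical axis, log scale) against the size of the difference of their log2 ratios (horizontal axis), at 1, 2 and 6 h from left to right. The line is all pairs, and the symbols are the Smad7 pair and the 3 Smurf2 pairs; the Smad7 pair stands at 0.0987% at 1 h with the signals as measured, and at 0.941% with signals under 155.2 raised to it, which is not drawn.

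Smad6 and the brighter Smad7 probe set followed each other over the 6 arrays, and the dimmer Smad7 probe set was not compared in this way. The log2 signals of Smad6 and Smad7 1423389_at had a Pearson r of 0.98 across the 6 arrays, a description over arrays that share the treatment and the scaling. Smurf1 1428395_at and Smurf2 1454894_at had 0.73, and each Smad with each of these ligase probe sets lay between −0.28 and 0.29. The other Smurf2 probe sets were not compared in this way. They include 1429045_at, whose activin signals all lay above its control signals. The r values for Smurf2 therefore describe 1454894_at alone, and do not say whether 1429045_at followed the Smads. Outside the members and with clone names passed over, 1489 genes past the filter were at least 1.5-fold apart at 1 time or more. Those most like Smad6 were Hes1 (r = 0.98), Cygb (0.97), Mfap3l (0.97), Tent5c (0.97) and Rflnb (0.97). Hes1 is a Notch target that represses transcription, Cygb a globin and Tent5c a poly(A) polymerase. Those most like Smad7 1423389_at were Evi5 (0.97), Rflnb (0.96), Hes1 (0.96), Mfap3l (0.96) and Kdm5b (0.95), a histone demethylase. Hes1, Rflnb and Mfap3l were in both lists. For Hes1 itself activin over control stood at 0.88 on the log2 scale at 1 h, 0.96 at 2 h and 0.37 at 6 h. For Smurf1 the closest were Ntsr2 (0.99), Syde1 (0.96), Chrac1 (0.93), Izumo4 (0.92) and Slc37a1 (0.91), and for Smurf2 1454894_at Cts8 (0.93), Slc1a5 (0.93), Ptk2b (0.90), Mpst (0.90) and Stk10 (0.90). Each list holds the highest r among the 1489 genes. The Smurf1 signals lay only between 683.6 and 799.8, so its r values rest on small differences. Some signals of Ntsr2 and Cts8 were under 155.2.

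The genes upstream and beside the members were read from fixed lists, each gene by its brightest probe set, beside a median log2 ratio of −0.04 over all 11408 genes. No gene of any list passed the limma test adjusted over all probe sets, and of all 11408 genes 422 higher and 609 lower had an unadjusted p under 0.05. Among 10 of 14 activin, BMP and TGF-beta receptors past the filter the median was −0.03, with Acvr1 at 0.26 ± 0.13, Bmpr2 at 0.21 ± 0.10, Tgfbr3 at −0.15 ± 0.10 and Acvr2b at −0.13 ± 0.10. Among 7 of 10 receptor Smads, Smad4 and partners it was −0.03, with Smad5 at 0.14 ± 0.10, Zfyve9 at 0.07 ± 0.10, the acetyltransferase gene Ep300 at −0.42 ± 0.15 and Smad3 at −0.19 ± 0.16. Of both lists Ep300 alone had an unadjusted p under 0.05 (limma, 0.0346).

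The other HECT ligases of the Nedd4 family, the nearest relatives of the Smurf genes, were listed with their adaptors. This list had a median of 0.01, and all 9 were past the filter. Ndfip1 had 0.14 ± 0.16, Ndfip2 0.12 ± 0.09, Hecw1 −0.22 ± 0.18 and Wwp1 −0.08 ± 0.10. Other ubiquitin enzymes and phosphatases that act on the pathway had a median of 0.00 over 16 of 17, from Usp4 at 0.19 ± 0.13 and Ppm1a at 0.13 ± 0.26 to Ppp1r15a at −0.24 ± 0.15 and Fbxw7 at −0.37 ± 0.12. Known substrates and partners of the Smurf ligases had −0.04 over 10 of 14, from Klf5 at 0.17 ± 0.23 and Rhoa, a GTPase that Smurf1 degrades, at 0.07 ± 0.09 to Pard6b at −0.20 ± 0.14 and Traf4 at −0.53 ± 0.19. In these 3 lists Fbxw7 and Traf4 had an unadjusted p under 0.05 (limma, 0.0283 and 0.0374).

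Other feedback inhibitors had a median of 0.11 over 11 of 14. The Smad co-repressor gene Skil had 1.04 ± 0.26, Tob1 0.23 ± 0.16, Ldlrad4 −0.11 ± 0.09 and Ski −0.37 ± 0.10. A list of direct activin targets, chosen with their behaviour in these data known, had 0.66 over 7 of 10, with Skil again, Inhbb at 0.92 ± 0.15, Nodal at 0.22 ± 0.14 and Id3 at 0.20 ± 0.26. Among the inhibitors an unadjusted p under 0.05 (limma) was reached by Skil, which was higher, and Ski, which was lower. Among the targets 5 of the 7 reached it, Skil again included, and all 5 were higher.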

How the data were processed

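Total RNA from 6 Lbeta T2 cultures was hybridised to 1 array each. The intensity values, linear signals per probe set, were deposited by the authors after GCOS 1.4, per the submitters' processing notes. No source used here states the program's settings, detection calls were not used, and each array has a trimmed mean of 500.002 (2% off each end). The authors also deposited fold changes with a sign, a score that is below 0 for lower genes, filtered at 1.2-fold and a signal difference of 100, per the file headers. How probes were corrected and summarised was fixed by those values.

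Control probe sets (64) were left out. Genes were named from the platform annotation and updated through Entrez identifiers to RefSeq GRCm38.p6. Signals were taken to log2 with a pseudocount of 0. Probe sets were kept when their mean log2 exceeded the median of all, 7.28. The mean effect over time was tested per probe set with limma 3.58.1 in R 4.3.3 (time as a block, 2 residual and 3.02 prior degrees of freedom), and its change with time by treatment by log2 hours (1 residual degree), both two-sided with Benjamini-Hochberg adjustment over 22518 probe sets at 0.05. Nothing in the labels describes repeated cultures, so p-values measure only how far the 3 pairs of arrays differ and the spread of all probe sets. Fits were tested on simulated data. Lists, members and rules were chosen with earlier results of these data known. Named genes were all members, the 2 highest and 2 lowest means of each list, and the 5 genes with the highest r to each member gene's brightest probe set, clone names passed over. The pairs of probe sets were examined after the data were seen. Alternatives were other filters, scalings, pseudocounts and priors, one row per gene, no time block, leaving out each time, other references and a 2-fold threshold. Figures used matplotlib 3.10.9.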

Additional observations from a re-analysis of the deposited data

Results flagged for a closer look

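For 3 of the 7 probe sets past the filter the log2 ratio of activin over control differed in sign between times. Of all 22518 probe sets past the filter, 14.1% were higher with activin at all 3 times. The share of all that differed in sign was not counted, so whether 3 of 7 is many or few cannot be said. Each time is 1 pair of arrays, so the members' differences were not tested beyond the slope over time, which passed for none. Smurf1 1428395_at had −0.169 at 1 h, 0.0851 at 2 h and −0.0102 at 6 h. Smurf2 1454894_at had −0.0921 at 1 h, 0.281 at 2 h and −0.117 at 6 h. Smurf2 1429046_at had −0.0211 at 1 h, 0.210 at 2 h and 0.304 at 6 h. Below the filter, Smurf1 1428396_at had −0.735, 0.0848 and −0.105 at these times.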

How the results depend on the processing

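No probe set passed the time-averaged test under any of the alternatives except limma-trend with a robust prior, where 21 passed, none of them a member. The slope test likewise passed 0 probe sets with quantile normalization and with hours on a linear scale, and 76 with limma-trend and a robust prior, none of them a member; the cause of these calls was not tested. At single times, 8 of the members' log2 ratios moved by more than the SD of the 3 control arrays when the mean of the controls was the reference. Leaving out the arrays of 1 time gave mean log2 ratios of 0.90 to 1.51 for Smad6, 0.66 to 1.18 for Smad7 1423389_at, 0.95 to 2.44 for Smad7 1443771_x_at, −0.09 to 0.04 for Smurf1 1428395_at, −0.10 to 0.09 for Smurf2 1454894_at, 0.45 to 0.80 for Smurf2 1429045_at and 0.09 to 0.26 for Smurf2 1429046_at. It left the count of called probe sets at 0. With each gene read as the median over its probe sets instead of the brightest one, Smad7 had 1.30 and Smurf2 0.53 (limma, adjusted p = 0.426 each), against 0.85 and 0.02. The Smad7 value includes the dim probe set, and for Smurf2 different probe sets supplied the median on different arrays: the median of its 3 mean ratios was 0.16. Over the other alternatives the adjusted p lay between 0.145 and 0.803 for Smad6 and between 0.197 and 0.803 for Smad7 1423389_at. Over all probe sets, those higher and lower by 1.5-fold with a filter at the 70th percentile numbered 262 and 204 (1 h), 281 and 115 (2 h), then 316 and 252 (6 h). At 2-fold they numbered 211 and 126, 160 and 136, and 208 and 158. With a pseudocount of 50 the lower ones were 461 at 1 h and 477 at 2 h. At an unadjusted p under 0.05, 2280 probe sets became 1195 or 1183 with 1 row per gene, a smaller table. Under quantile normalization Smurf1 1428395_at had 0.02 at 6 h and Smurf2 1429046_at 0.00 at 1 h. The labels give no replicate numbers; the arrays were paired by time in the fit, and without that block 0 probe sets passed. The mean difference of the Smad7 probe sets was −0.63 with a pseudocount of 50 and −0.39 with dim signals raised, against −0.89, settings chosen after seeing the data. Signals near 155.2 and below limit the folds of Smad7 1443771_x_at, and the dim Smurf1 1428396_at was not tested.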
